A study of Mus musculus with 67 samples.

Results

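The 10 genes described here are 9 genes for nuclear factors of the pluripotency network (Pou5f1, Nanog, Sox2, Esrrb, Tfcp2l1, Zfp42, Prdm14, Tbx3 and Dppa4) and Tdgf1. They were chosen by symbol, and all 10 were found as rows among the 26414 genes of the deposited table. RNA of mouse preimplantation embryos of strain C57BL/6 was sequenced by SMART-seq2 in 67 libraries, 33 of the control group and 34 of the light group. Light embryos received 5000 lx over 6 h as 2-cell embryos and were cultured in darkness afterwards, while control embryos stayed dark throughout. Control and light numbered 7 and 6 2-cell libraries, 6 and 8 4-cell libraries, 4 and 8 8-cell libraries, 13 and 6 morulae, and 3 and 6 blastocysts. The labels call each library an embryo, while the methods describe single cells, and the embryo that each cell came from is not given. A library is called here by its group and the number in its label.

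Pou5f1 (OCT4), Sox2 and Nanog code for the core factors that keep the cells of the inner cell mass able to form every tissue of the fetus. OCT4 and SOX2 bind side by side to a joint motif in many of the genes they control. Esrrb, Tfcp2l1, Tbx3, Prdm14 and Zfp42 (REX1) belong to the naive state of the early epiblast and of embryonic stem cells, Tdgf1 (Cripto) is a coreceptor for Nodal, and Dppa4 is a chromatin factor of early embryos. In the blastocyst, Nanog and Sox2 mark the epiblast, Gata4, Gata6, Sox17 and Pdgfra the primitive endoderm, and Cdx2, Gata3, Krt8 and Krt18 the trophectoderm.

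A deposited value is the number of reads on a gene divided by 1 size factor of the library, with no division by gene length, so that values are compared between libraries and not between genes. Total reads lay between 836011 and 8551674, and 54.0% to 89.3% of them were on CT010467.1 and Gm42418, an rRNA locus. This left 318177 to 2867030 reads for all other genes. The ratio of Gm42418 to CT010467.1 was higher in every control library than in every light library of the 2-cell, 8-cell and morula stages, and whether the 2 groups were prepared as separate batches is not given, so that such a batch and light cannot be told apart there. In blastocysts its mean was 1.43 in both groups. Reads on the Y-linked genes Ddx3y, Eif2s3y, Kdm5d and Uty reached an RPM of 10, where RPM scales reads to a fixed total of reads outside the rRNA locus, in 0 of the 3 control and in all 6 light blastocyst libraries, so that the sex or identity of the embryos sampled and light cannot be told apart in this comparison. The p-values rest on the spread between libraries, and they would understate the error wherever several cells of 1 embryo were sequenced. The Y-linked level was reached in 0 of 4 control 8-cell libraries, 0 of 13 control morulae and all 8 light 4-cell libraries. Libraries above and below it occurred in each of the other groups outside blastocysts. How many embryos the libraries of a group stand for is not given.

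Promoter windows of RefSeq (mouse build GRCm38.p6) were found for 7 members, in 10 windows. The submitters' processing notes name mm9, and no coordinate was carried between builds. The octamer core to which OCT4 binds, ATGCAAA on either strand, was in the windows of Nanog, Sox2 and Zfp42, and in 4.65% of all 32544 windows. The SOX core, ACAAAG or ACAATG on either strand, was in 28.4% of the windows. Both motifs lay side by side, at most 3 bases apart, in 19 windows (0.0584%), among which were those of Nanog. The stretches that hold the octamer core are shown because they hold the OCT4 letters in 3 members, and in Nanog the SOX letters beside them, with the motif letters in capitals and each written 5′ to 3′ on the strand of its gene.
Nanog (chr6:122707384-122707457, plus strand): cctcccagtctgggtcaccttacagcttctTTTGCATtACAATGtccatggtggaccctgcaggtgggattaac
Sox2 (chr3:34649866-34649932, plus strand): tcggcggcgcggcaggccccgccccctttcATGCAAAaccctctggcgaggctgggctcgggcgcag
Zfp42 (chr8:43307158-43307224, minus strand): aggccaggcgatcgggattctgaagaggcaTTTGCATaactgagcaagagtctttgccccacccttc
The Nanog stretch carries the octamer core on the opposite strand, 1 base away from ACAATG, and ends at position -32 from one annotated start and at -108 from another, where negative positions lie before the start. In the Sox2 window the octamer core lay at positions -99 to -93, and in that of Zfp42 at -185 to -179. The Sox2 window also held a SOX core, ACAAAG, at -206 to -201, outside the stretch shown. The windows of Tfcp2l1 and Tdgf1 held neither core, and 1 window each of Pou5f1 and Esrrb held a SOX core. A match of letters is a description of these windows and not a binding site.

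The members were detected unequally. Pou5f1, Tbx3 and Dppa4 had a value above 1 in all 67 libraries, Tfcp2l1 and Zfp42 in 66, Esrrb in 64, Tdgf1 in 61 and Nanog in 54. Prdm14 had one in 19 libraries and Sox2 in 16. Sox2 was at 0 in 45 libraries and Prdm14 in 42, where a count of 0 allows up to 3 reads, or values between 0.797 and 11.7 depending on the library. Reads were amplified without molecular identifiers, so this limit covers counting error only.

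**Figure D1:**
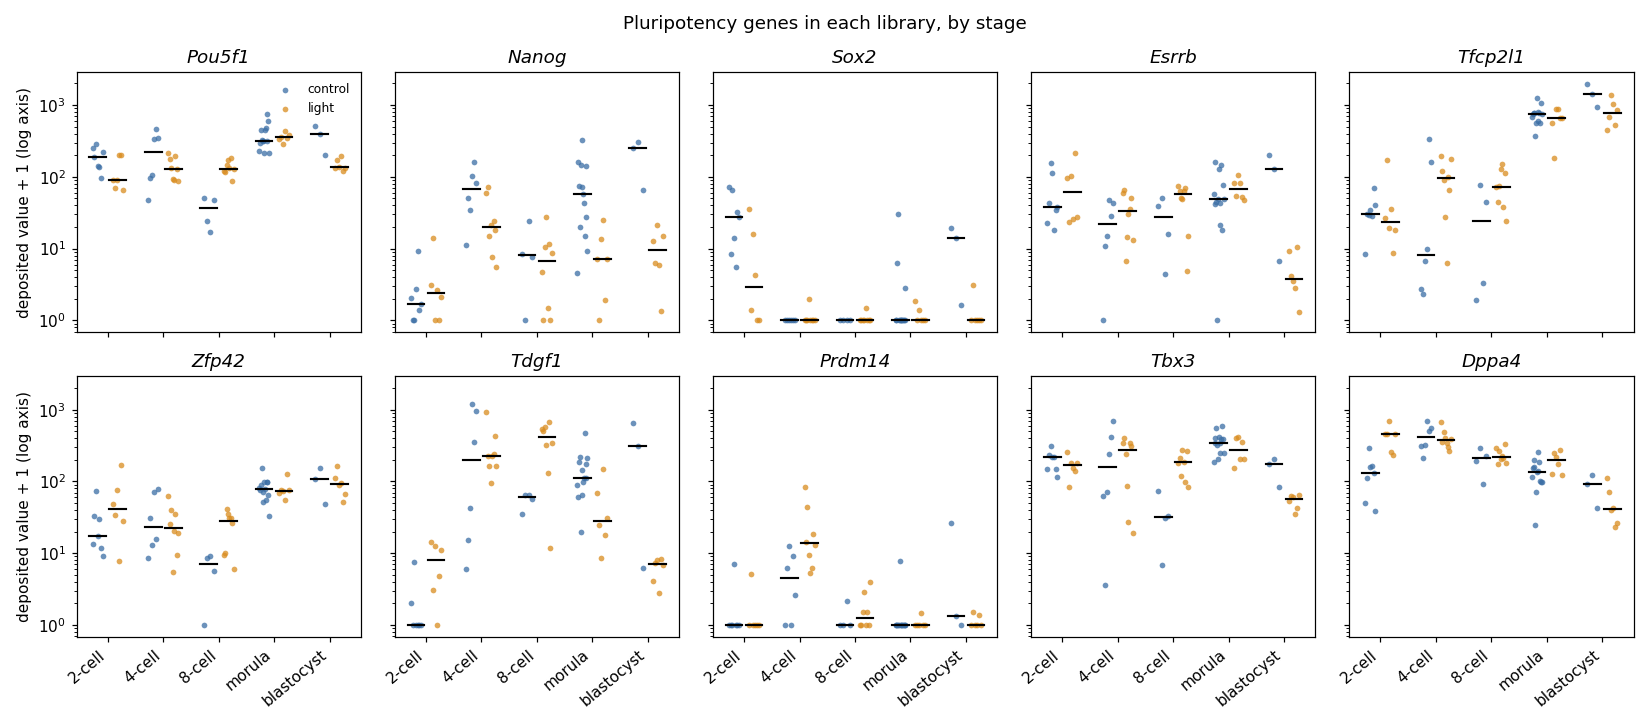
Deposited value plus 1 (log axis) of each of the 10 genes in every library, by stage on the horizontal axis, with control in blue and light in orange. Points are libraries and black bars are group medians. Light 8-cell libraries lie above all control libraries for Pou5f1 and Tbx3, and light blastocyst libraries lie below all control libraries for Nanog, Pou5f1 and Tbx3.

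Among the core factors, Pou5f1 was present from the 2-cell stage on. In control libraries its mean value was 188 ± 68.5 (SD, n = 7) at the 2-cell stage, 230.2 ± 169.6 (n = 6) at the 4-cell stage, 34.0 ± 16.6 (n = 4) at the 8-cell stage, 380.1 ± 159.7 (n = 13) in morulae and 369 ± 158 (n = 3) in blastocysts. The 8-cell stage thus had the lowest mean, and the other neighbours in the order of the means lay within 1 SD of each other. In the light group the means were 119 ± 63.3 (n = 6), 139.7 ± 51.2 (n = 8), 135 ± 30.6 (n = 8), 357 ± 46.6 (n = 6) and 148 ± 27.7 (n = 6) in the same order, with morulae apart from the other stages. An antisense gene, Gm19553, overlaps exons of Pou5f1, and whether strand was used in counting is not given in the sources used here.

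Nanog was near 0 at the 2-cell stage in both groups. Control means were 1.73 ± 2.95 (n = 7), 73.1 ± 54.0 (n = 6), 9.32 ± 9.84 (n = 4), 83.4 ± 91.2 (n = 13) and 206 ± 124 (n = 3) in the order of development. Light means were 3.02 ± 5.07 (n = 6), 27.0 ± 24.4 (n = 8), 7.29 ± 8.90 (n = 8), 8.31 ± 8.98 (n = 6) and 9.38 ± 7.24 (n = 6). The highest mean was thus that of blastocysts in the control group and that of the 4-cell stage in the light group. No neighbours in either order were further apart than their SDs. A related pseudogene, Nanog-ps1, has its own row, and how reads shared with it were counted is not given.

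Sox2 had 2 periods of signal in the control group. Its value was 4.595 to 70.8 (median 26.2, n = 7) in control 2-cell libraries, 0 in all 6 control 4-cell and all 4 control 8-cell libraries, and above 0 in 3 of 13 control morulae. Of these, control morula 16 had 28.9 and the other two 5.26 and 1.87. The 3 control blastocysts had 18.4, 12.9 and 0.642. In the light group, values at the 2-cell stage ran from 0 to 34.3 (median 1.88, n = 6), and the highest value of any later light library was 2.10, made of 4 reads in light blastocyst 15.

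Tfcp2l1 and Zfp42 were high in late stages. Tfcp2l1 had control means of 33.4 ± 18.5, 85.0 ± 137, 30.8 ± 36.2, 749 ± 223 and 1452 ± 529 and light means of 45.8 ± 61.8, 96.6 ± 65.7, 79.9 ± 46.05, 637 ± 257 and 827 ± 347 (SD, n as above). Morulae and blastocysts were the 2 highest stages in both groups and were apart from the 3 earlier stages by more than their SDs. For Zfp42 control means were 25.9 ± 22.2, 35.3 ± 30.7, 5.04 ± 3.69, 79.8 ± 29.4 and 102 ± 52.6, and light means were 60.0 ± 59.0, 26.3 ± 18.6, 22.9 ± 13.51, 78.8 ± 25.2 and 95.6 ± 39.7. Neighbours in the order of the Zfp42 means overlapped throughout. An snRNA gene, Gm23497, shares exon sequence with Tfcp2l1.

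Esrrb and Tbx3 were present at all stages of the control group. Esrrb had control means of 59.8 ± 52.7, 23.5 ± 18.8, 26.7 ± 21.2, 63.5 ± 50.1 and 111 ± 97.8 in the order of development, and light means of 80.6 ± 74.5, 33.4 ± 22.1, 48.1 ± 25.8, 69.9 ± 22.9 and 4.25 ± 3.72. Only the light blastocysts were apart from the next stage in the order. Tbx3, a T-box factor, had control means of 199 ± 66.3, 249 ± 269.5, 35.0 ± 27.5, 356 ± 125 and 153 ± 62.1. The 8-cell mean was the lowest and lay apart from the next in the order, the blastocyst, but not from the widely spread 4-cell libraries. In the light group they were 165 ± 56.5, 221 ± 155, 178 ± 73.5, 287 ± 113 and 52.1 ± 12.0, with the blastocyst apart from the others. The antisense gene Tbx3os1 overlaps Tbx3.

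Tdgf1 and Prdm14 appeared at the 4-cell stage. Tdgf1 had control means of 1.08 ± 2.43, 429 ± 526.05, 54.2 ± 13.7, 149.6 ± 113 and 321 ± 319.9, and light means of 6.87 ± 5.58, 310.02 ± 273, 384 ± 226, 48.6 ± 51.9 and 5.24 ± 2.27. At the 4-cell stage the control libraries ran from 5.11 to 1197 (median 197, n = 6). Control 4-cell libraries 1, 2 and 3 had 5.11, 14.4 and 41.4 and libraries 4, 5 and 6 had 1197, 352 and 964. Libraries 1, 2 and 3 were also below 4, 5 and 6 for Pou5f1, Nanog, Esrrb, Tfcp2l1, Tbx3 and Dppa4. Libraries 1 and 2 had a Y-linked RPM under 10 and rRNA ratios of 4.55 and 4.35, while the other four lay between 1.61 and 1.98. The pseudogene Tdgf1-ps1 has its own row.

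Prdm14, a PR-domain factor of the epiblast and germ line, had 0 to 11.8 (median 3.44, n = 6) in control and 4.34 to 82.0 (median 12.7, n = 8) in light 4-cell libraries. At the other stages its value was above 5 in 3 libraries, of which 1 was control blastocyst 1, with 25.2. Dppa4 was highest early: control means were 134 ± 85.5, 433 ± 183, 199.96 ± 83.6, 133 ± 59.8 and 85.6 ± 40.8, and light means were 426 ± 171, 403 ± 126, 234 ± 54.8, 194 ± 63.4 and 51.8 ± 33.8.

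Light and control libraries of each stage entered a limma fit of log2(value + 1). All genes that exceeded 1 in at least 3 of the libraries compared were tested. A fold change is on that scale, with its standard error (SE), and a gene was called at an adjusted p (Benjamini-Hochberg over all genes) under 0.05 and a change of at least 2-fold. These comparisons ask how exposure at the 2-cell stage relates to the pluripotency genes then and later.

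At the 2-cell stage 1 of 9 members tested was called, Dppa4, against 10.5% of all 18532 genes called and 5.53% called higher. Its value was 37.9 to 294 (median 129, n = 7) in control and 229 to 700.5 (median 457.0, n = 6) in light libraries. The groups overlapped in control library 12 and light libraries 15 and 16. Dppa4 rose by 1.84 (SE 0.39, adjusted p = 0.00221 from limma), and kept the call with each library left out. Dppa2, which codes for the partner of the DPPA4 protein and was among 32 other pluripotency genes listed, was also higher, by 2.15 (adjusted p = 0.00101 from limma). Of the 25 tested in that list 4 rose and 1, the maternal transcript Tcl1, fell by 2.65 on the log2 scale. Sox2 was not called, at -2.51 (SE 0.90, adjusted p = 0.0675 from limma), except in 1 fit over all libraries and without control library 24 (-2.84) or light library 10 (-3.15). Tdgf1 had a change of 1.92 (SE 0.76, adjusted p = 0.0981 from limma), and was called without control library 12 (2.31) or light library 15 (2.42). In the same libraries 4 of 12 oocyte transcripts were lower in light, led by Bmp15 and Oosp1, and their summed value was 2950.4 to 6146 in control and 954 to 2514 in light. Of 3 cumulus cell genes tested 1, Tnfaip6, was higher in light, by 2.65 (adjusted p = 0.0343 from limma), and the sum of that list was 23.0 to 103 in control and 68.7 to 227 in light. The part of these in the result was not tested. Among the 4 control and 4 light libraries under the Y-linked level Dppa4 was still called, with 2.05.

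At the 4-cell stage 0 of 9 members tested were called by limma, against 1.45% of all genes. At an unadjusted p under 0.05 there were 3, Nanog, Tfcp2l1 and Prdm14, and 17.5% of all genes, and edgeR and DESeq2 also called 0. The change of Prdm14 was 2.16 (SE 0.81, adjusted p = 0.167 from limma), and it was called in 1 fit over all libraries. For Nanog it was -1.45 (SE 0.63, adjusted p = 0.226 from limma), with values of 10.2 to 160.5 (median 66.3) in control and 4.56 to 71.2 (median 18.8) in light. All groups overlapped. Called among the other pluripotency genes were Klf5 and Klf2, 2 Kruppel-like factors, which rose by 2.09 and 2.05. Without control libraries 1 and 2, which left only libraries at or above the Y-linked level, 0 members were called, and the sign of the change turned for Esrrb, Tdgf1 and Tbx3.

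At the 8-cell stage 4 of 9 members tested were called, all higher in light, against 9.21% of all genes called and 5.91% called higher. The median log2 change of the members was 2.07 and that of all genes 0.16. Pou5f1 had 49.1, 23.4, 16.3 and 47.1 in the 4 control libraries and 86.7 to 183 (median 129.8, n = 8) in light libraries. Every light library was above every control library. The log2 fold change was 2.07 (SE 0.34, adjusted p = 0.000532 from limma). Tbx3 had 72.2, 5.86, 30.2 and 31.7 in control and 83.5 to 274 (median 183) in light, also without overlap, and rose by 2.62 (SE 0.47, adjusted p = 0.00104 from limma). Groups did not overlap upward for 3.31% of all genes. Both calls remained under all 10 alternatives, among them RPM and the 4 control against 5 light libraries under the Y-linked level, and with each library left out.

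Tfcp2l1 and Tdgf1 also rose at the 8-cell stage, less securely. Tfcp2l1 had 0.926, 76.1, 2.32 and 43.8 in control and 22.9 to 149 (median 72.1) in light, and Tdgf1 had 34.2, 63.9, 62.7 and 55.9 in control and 10.8 to 667 (median 419.5) in light. Control libraries 2 and 4 lay within the light range for Tfcp2l1 and light library 8 lay below all control libraries for Tdgf1, while the other 7 light libraries had at least 132. The log2 fold changes were 2.49 (SE 0.76, adjusted p = 0.0371 from limma) and 2.25 (SE 0.70, adjusted p = 0.0407 from limma). Without control 1 or 3 or light 5, 6, 8, 10 or 12 the call of Tfcp2l1 was lost (adjusted p up to 0.173 from limma), and that of Tdgf1 was lost without any library except light 6 and 8 (up to 0.112). Tfcp2l1 also lost its call under 4 of 10 alternatives, edgeR and DESeq2 among them, and Tdgf1 under 6 of 10, RPM among them. Zfp42 had a change of 2.10 (SE 0.73, adjusted p = 0.0701 from limma), and Dppa4 one of 0.31. Of 22 other pluripotency genes 3 rose, Dppa5a and Id3 first by p, and Tcl1 fell by 2.14 on the log2 scale. Of 9 trophectoderm markers tested 5 rose, with Dab2 and Hand1 first. The summed value of the 17 listed was 127 to 295 in control and 192 to 747 in light libraries, and Cdx2 was at 0 in all 4 control libraries. The part of these in the result was not tested.

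In morulae 1 of 9 members tested was called, Nanog, which was lower in light, against 1.18% of all genes called and 0.821% called lower. Nanog had 3.53 to 329 (median 56.1, n = 13) in control and 0 to 24.2 (median 6.08, n = 6) in light libraries. Control morulae 9, 10, 16 and 26 lay within the light range and the other 9 lay above it. The log2 fold change was -3.04 (SE 0.76, adjusted p = 0.0388 from limma). The call was lost under 6 of 11 alternatives and without control 6, 12, 14, 18, 20 or 23 or light 1, 6, 9 or 12, with adjusted p up to 0.099 when 1 library was left out. Tdgf1 had 18.7 to 465.7 (median 111) in control and 7.48 to 146 (median 27.2) in light, and a change of -1.86 (SE 0.53, adjusted p = 0.074 from limma). Pou5f1 and Zfp42 had changes of 0.00 (SE 0.27) and 0.02 (SE 0.35). Dppa5a was called, 1 of 23 other pluripotency genes tested, and fell by 1.58. The summed trophectoderm markers were 326 to 3269 in control and 967 to 3074 in light morulae, and 0 of 13 such genes tested by limma were called.

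**Figure D2:**
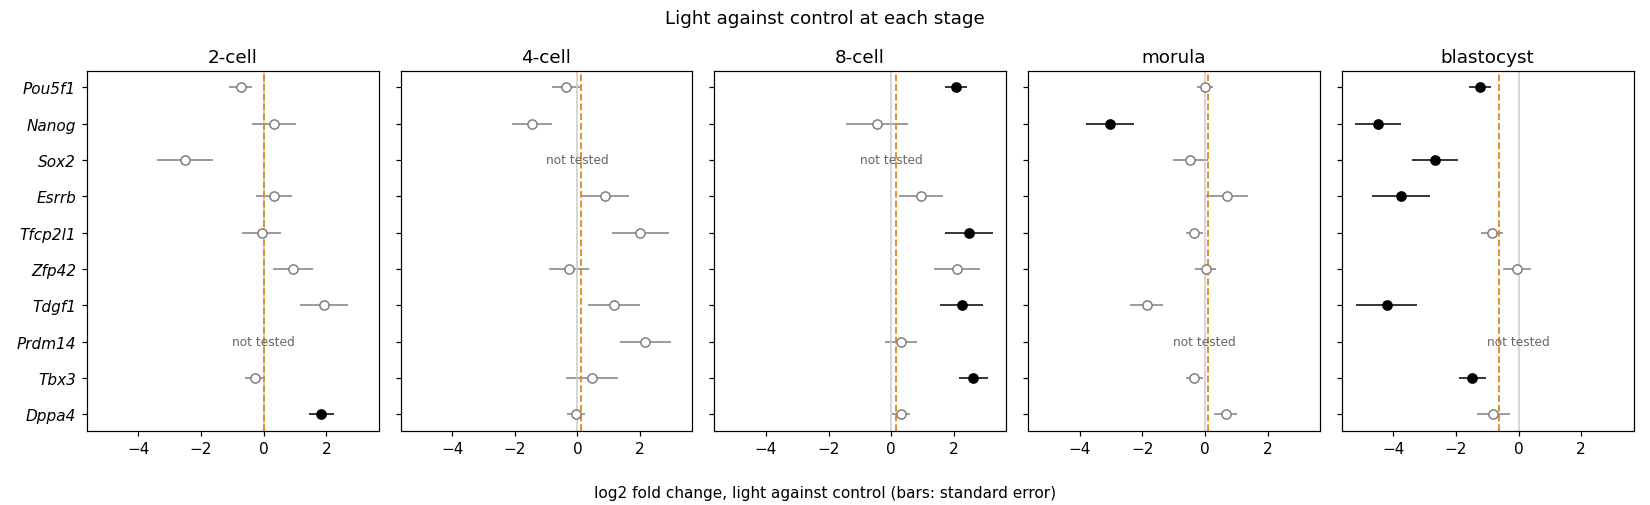
Log2 fold change of light against control (horizontal axis) for each gene (vertical axis) at the 5 stages, on the log2(value + 1) scale, with bars for the standard error. Filled black points were called and open points were not, and the dashed orange line is the median of all genes tested, which was -0.64 in blastocysts. Filled points lie to the right at the 8-cell stage and to the left in blastocysts.

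In blastocysts 6 of 9 members tested were called, all lower in light, against 5.34% of all 12743 genes called and 4.98% called lower. The members' median log2 change was -1.47 and that of all genes -0.64 on the deposited scale, from which Nanog differed by -3.84, Tdgf1 by -3.57, Esrrb by -3.11, Sox2 by -2.02, Tbx3 by -0.83 and Pou5f1 by -0.59. On the RPM scale the median of all genes was -0.03, 40.8% of all called genes were lower in place of 93.4%, and Nanog was the 1 member called. The rRNA locus, which RPM leaves out, took 81.0%, 73.8% and 74.0% of reads in control libraries 1, 2 and 3. In light blastocyst libraries it took 77.8% to 89.3%. Nanog had 249.9, 302 and 65.5 in control libraries 1, 2 and 3, and 11.6, 5.26, 20.3, 4.95, 0.368 and 13.8 in light libraries 13, 15, 23, 24, 26 and 29. Every control library was above every light library, by more than 3-fold at the nearest on the deposited scale. In RPM the gap was smaller, with 89.4 as the lowest control and 46.2 as the highest light value. The log2 fold change was -4.48 (SE 0.74, adjusted p = 0.00243 from limma), and -3.98 on the RPM scale (adjusted p = 0.0129 from limma). The call remained under all 9 alternatives, between -4.85 and -3.85, and with each library left out, between -5.17 and -3.99.

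Tdgf1 and Esrrb fell in blastocysts, with high values in control libraries 1 and 2 alone. Tdgf1 had 645 and 313 in these and 5.14 in control library 3, which lay within the light range of 1.80 to 7.36 (median 6.04, n = 6). Esrrb had 199, 129 and 5.78 in control libraries 1, 2 and 3 and 0.320 to 9.57 (median 2.83) in light, again with the third control library inside the light range. Their log2 fold changes were -4.21 (SE 0.97, adjusted p = 0.0168 from limma) and -3.75 (SE 0.93, adjusted p = 0.0221 from limma). Both calls were made on the recovered reads by edgeR and by DESeq2, but Esrrb lost its call under 5 of 9 alternatives and Tdgf1 under 4 of 9, RPM among them. Both were lost without control library 1 or without control library 2, with adjusted p up to 0.142 for Tdgf1 and 0.161 for Esrrb.

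Sox2, Tbx3 and Pou5f1 were called in blastocysts with smaller changes. Sox2 had 18.4, 12.9 and 0.642 in control and 0 in all light libraries but number 15, with 2.10, and a change of -2.66 (SE 0.74, adjusted p = 0.0365 from limma). Tbx3 had 173, 203 and 83.5 in control and 34.2 to 64.0 (median 56.0) in light, without overlap, and a change of -1.47 (SE 0.42, adjusted p = 0.0427 from limma). Pou5f1 had 510.2, 399 and 198 in control and 121 to 192 (median 135) in light, also without overlap, and a change of -1.23 (SE 0.36, adjusted p = 0.0488 from limma). Groups did not overlap downward for 11.9% of all genes. In RPM, Pou5f1 was 271 to 1041 in control and 247 to 513 in light, which overlapped, and its change was -0.46 (adjusted p = 0.586 from limma). Tbx3 overlapped on that scale too, with -0.72 (adjusted p = 0.404 from limma). All 9 alternatives lost the call of Pou5f1, 8 of 9 that of Tbx3 and 7 of 8 that of Sox2. Leaving out control 1 or 2 or light 13, 24, 26 or 29 lost each of these calls, as did light 15 for Pou5f1 and Tbx3 and light 23 for Sox2, with adjusted p up to 0.198, 0.224 and 0.166 for Pou5f1, Tbx3 and Sox2.

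Zfp42, Tfcp2l1 and Dppa4 were not called in blastocysts. Zfp42 had 107, 152 and 47.5 in control and 50.4 to 164 (median 92.1) in light libraries, with a change of -0.05 (SE 0.45). Tfcp2l1 had 1985, 1443 and 928 in control and 455 to 1388 (median 776) in light, and Dppa4 92.6, 122.5 and 41.7 in control and 22.4 to 111 (median 40.5) in light. Their changes of -0.85 (SE 0.36) and -0.81 (SE 0.52) were close to the median of all genes. Prdm14 was not tested there.

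The 3 control blastocyst libraries differed from each other. On the deposited scale, 8 of the 10 members were above the whole light range in control libraries 1 and 2. In control library 3, 3 of them were. The share of all genes above that range was not computed for single libraries. The median log2 change of all genes was -0.64 on this scale, so these counts are not read as a trait of the members. Control library 1 had the highest value of the 9 libraries for 6 members and control library 2 for 3. Trophectoderm markers differed between the control libraries too, and control library 1 was the lowest of the 9 in Cdx2, Krt8 and Gata3. Cdx2 was 7.89, 167 and 196 in control libraries 1, 2 and 3 and 128 to 244 in light, Krt8 was 257, 1488 and 2836 against 1371 to 3916, and Gata3 was 40.5, 248 and 889 against 261 to 729. Summed over the 17 trophectoderm markers, control library 1 had 697.5, control library 2 had 4666, control library 3 had 8273 and the light libraries 3658 to 9436. Control libraries 2 and 3 thus lay within the light range in this sum, although 8 members in control library 2 were above their light ranges. Control library 3 also lay within the light range in Tdgf1 and Esrrb, while its Nanog, at 65.5, was above the highest light value of 20.3.

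Of 12 primitive endoderm genes tested in blastocysts 5 were lower in light, led by Lamb1 and Cubn. The sum of the list over 16 genes was 1559, 1076 and 484 in control libraries 1, 2 and 3 and 114 to 231 in light libraries. Pdgfra was 124, 55.3 and 0 in control and at most 2.10 in light, and Sox17 was 25.8, 0 and 0 in control and at most 4.66 in light. Gata6 was 260, 210.1 and 36.6 in control and 64.4 to 124 in light, and Gata4 was 70.5, 0.348 and 5.78 in control and at most 3.11 in light. In control library 3 Gata6 was below every light library. By limma 0 of 16 trophectoderm genes were called. Of 24 other pluripotency genes 5 were lower in light, with Spp1 at -6.65 (adjusted p = 0.000446 from limma) and the epiblast factor Klf2 at -2.84 (adjusted p = 0.0225 from limma). The part of cell type in the members' differences was not tested, and where a library holds several cells, fewer cells of a type and less RNA per cell cannot be told apart.

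**Figure D3:**
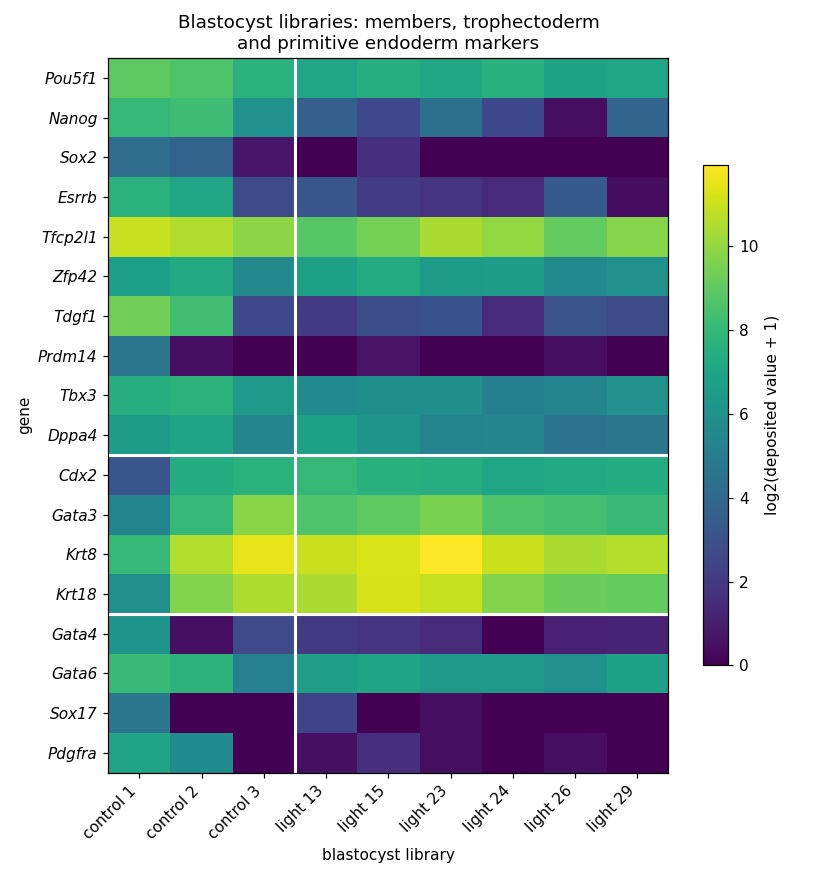
Log2 of the deposited value plus 1 (colour) in each of the 9 blastocyst libraries (columns) for the 10 genes (upper block), trophectoderm markers (middle block) and primitive endoderm markers (lower block). Control 1 and control 2 are bright for Nanog, Esrrb and Tdgf1, control 3 is dark for Esrrb and Tdgf1 like the light libraries, and control 1 is dark for Cdx2.

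**Figure D4:**
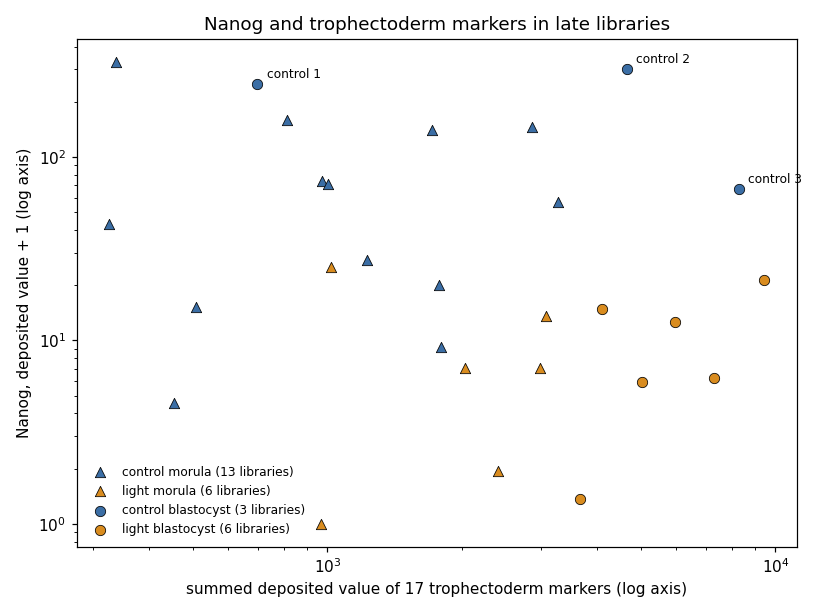
Nanog (deposited value plus 1, vertical log axis) against the summed value of 17 trophectoderm markers (horizontal log axis) in each morula (triangles) and blastocyst (circles) library, with control in blue and light in orange. The 3 control blastocysts lie above all 6 light blastocysts in Nanog. Controls 2 and 3 lie at trophectoderm sums (4666 and 8273) within the light range and control 1 at 697.5, below it.

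Changes from stage to stage were tested within each group, in libraries that the comparisons above also use. From the 2-cell to the 4-cell stage 4 of 10 members were called in control, 3 higher and 1 lower, against 46.1% of all genes called, 13.8% called higher and 32.3% called lower. In light 3 were higher and 1 lower, against 36.5% of all genes called, 7.43% higher and 29% lower. Nanog rose by 4.79 (SE 0.73) in control and 3.00 (SE 0.72) in light, and Tdgf1 by 6.20 (SE 1.06) and 5.45 (SE 0.54), while the median of all genes was -0.72 and -0.56. Dppa4 was called in control, with 1.85 (SE 0.45, adjusted p = 0.00199 from limma), and had -0.03 (SE 0.26) in light, where it was already 426 on average at the 2-cell stage. Prdm14 was called in light, with 3.59 (SE 0.72, adjusted p = 0.000218 from limma), and had 1.42 (SE 0.69) in control. The stages did not overlap for Nanog in control and for Tdgf1 and Prdm14 in light, against 4.45% and 1.74% of all genes upward, nor for Sox2 in control, against 16% downward. Sox2 fell in both groups. With 0 reads in all 6 control 4-cell libraries it was at least 14.2-fold lower there, taking 3 reads per library as the limit, and in light, with 61 reads before and 2 after, the ratio was 54.1 (95% exact counting interval 14.3 to 457). This interval covers counting error in the pooled reads and not the spread between libraries. The log2 change of Sox2 in light was -1.84 (SE 0.66, adjusted p = 0.0269 from limma). Of the 61 reads 49 came from light 2-cell library 10, without which the ratio was 13.3 (2.97 to 123), and both later reads from light 4-cell library 1, without which none remained and the fold was at least 2.77. The call of Sox2 in light was lost without light 2-cell library 10 or 14 (adjusted p up to 0.0918 from limma). Of the other pluripotency genes 5 of 24 rose and 8 fell in control, and 5 of 25 rose and 8 fell in light. Whether these steps differed between the groups was not tested.

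From the 4-cell to the 8-cell stage 2 of 9 members were called in control, all lower, against 6.31% of all genes called and 5.17% called lower, and 2 of 9 in light, also lower, against 10.6% and 9.94%. Pou5f1 fell by 2.43 (SE 0.61) and Nanog by 3.13 (SE 0.89) in control, where the median of all genes was -0.56. In light Nanog fell by 2.13 (SE 0.70) and Prdm14 by 3.39 (SE 0.63), the latter without overlap between the stages, against 2.18% of all genes downward, and the change of Pou5f1 was 0.00 (SE 0.24). The control call of Pou5f1 was lost without control 4-cell library 5 or control 8-cell library 3 (adjusted p up to 0.0792 from limma). That of Nanog in control was lost without control 4-cell 4, 5 or 6 or control 8-cell 1, 2 or 4 (up to 0.126), and in light without light 4-cell 1, 6, 7, 11, 13 or 14 or light 8-cell 6, 8, 10 or 11 (up to 0.0957).

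From the 8-cell stage to the morula 5 of 9 members rose in control, against 14.3% of all genes called and 6.84% called higher. Tfcp2l1 rose by 5.88 (SE 0.59, adjusted p = 1.26e-07 from limma), Zfp42 by 4.06 (SE 0.54), Tbx3 by 3.66 (SE 0.43), Pou5f1 by 3.48 (SE 0.37) and Nanog by 2.89 (SE 0.90). The first 4 of these had no overlap between the stages, against 2.66% of all genes. Without control 8-cell library 1, 2 or 4 the call of Nanog was lost (adjusted p up to 0.198 from limma). In light 4 of 8 members were called, against 11.8% of all genes called, 4.61% higher and 7.22% lower. Tfcp2l1 rose by 3.06 (SE 0.38), Zfp42 by 1.98 (SE 0.44) and Pou5f1 by 1.42 (SE 0.22), each without overlap, against 1.2% of all genes. Tdgf1 fell by 2.97 (SE 0.67, adjusted p = 0.00345 from limma) in light and had a change of 1.14 (SE 0.54, adjusted p = 0.167 from limma) in control. Nanog had 0.30 (SE 0.84) in light. Of the other pluripotency genes 4 of 23 rose and 3 fell in control, and 1 of 24 rose and 5 fell in light, while 6 of 12 trophectoderm genes rose in control and 7 of 12 in light.

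From the morula to the blastocyst 1 of 9 members was called in control, against 11.9% of all genes called and 5.11% called lower, and 5 of 8 in light, against 20.7% called and 15.7% called lower. In control Tbx3 fell by 1.23 (SE 0.37, adjusted p = 0.0306 from limma), a call lost without control blastocyst 1 or 3 (adjusted p up to 0.286 from limma) and under 4 of 8 alternatives. Tfcp2l1 passed the p threshold there with a change of 0.95, under 2-fold. The rRNA ratio was lower in every control blastocyst than in every control morula, so that a batch and stage cannot be told apart in this control step. In light Esrrb fell by 4.03 (SE 0.55, adjusted p = 2.28e-06 from limma), and Tbx3, Dppa4, Tdgf1 and Pou5f1 fell as well, with -2.37 (SE 0.34), -2.04 (SE 0.39), -2.48 (SE 0.61) and -1.28 (SE 0.29), while the median of all genes was -0.45. In these 5 genes the stages did not overlap in light, against 6.41% of all genes downward, and the calls remained with each library left out. In RPM Esrrb and Tbx3 still had no overlap, and the stages overlapped for Pou5f1, Tdgf1 and Dppa4. The call of Pou5f1 was lost under 3 of 7 alternatives, the median ratio, RPM and edgeR. Of the other pluripotency genes 1 of 23 rose and 8 fell in light, and 3 of 24 rose and 2 fell in control, while 12 of 16 trophectoderm genes rose in light and 8 of 15 in control. The light morulae held Esrrb at 47.2 to 105 (median 67.1) and the light blastocysts at 0.320 to 9.57. Y-linked reads reached the level given above in all 6 light blastocysts and in 1 of 6 light morulae, and their part in the result was not tested.

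The difference between the groups in this last step was tested by an interaction term, which called 0 of 9 members by limma, against 1.57% of all genes. At an unadjusted p under 0.05 there were 6 members, all with a lower change in light, and 16.9% of all genes. Esrrb had -4.47 (SE 1.25, adjusted p = 0.0566 from limma), and was called by edgeR, which also called Tdgf1, and in 1 fit over all libraries. A second interaction, chosen after the data were seen, compared the difference between light and control in blastocysts with that at the 8-cell stage. Members had been called higher at the 8-cell stage and lower in blastocysts in these same libraries, so its p-values are no separate support. Both interactions use control blastocysts, whose rRNA ratios lay below those of all control morulae and 8-cell libraries. A batch and the difference that these terms measure cannot be told apart. This second interaction called 6 of 10 members, all with a lower difference in blastocysts, against 8.07% of all genes called and 7.16% called lower. Tbx3 had -4.09 (SE 0.68, adjusted p = 0.000359 from limma), Pou5f1 -3.30 (SE 0.50, adjusted p = 0.000121 from limma) and Tdgf1 -6.46 (SE 1.30, adjusted p = 0.00254 from limma), and these calls remained with each library left out and under the alternatives run. By the values given above, the light group was above control at the 8-cell stage and below it in blastocysts for Pou5f1 and Tbx3. Neither stage overlapped on the deposited scale, although in RPM the blastocyst values of both genes overlapped.

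Likeness between genes was measured by Pearson's r of log2(value + 1) over all 67 libraries, which share stages, depth and scaling, and is given as a description. Among pairs of members the highest were Pou5f1 with Tbx3 (0.66), Tfcp2l1 with Zfp42 (0.65) and Pou5f1 with Zfp42 (0.63), and the lowest was Dppa4 with Tfcp2l1 (-0.39). Nanog and Sox2 had -0.23. Among other genes, Pa2g4 had 0.86 with Dppa4, and Bhmt (0.82) and Gaa (0.78) were most like Tdgf1. Gsto1 was the closest to both Tfcp2l1 (0.82) and Zfp42 (0.74), Tbx20 (0.77) to Pou5f1, Eef1a1 (0.71) to Nanog and Clvs1 (0.78) to Sox2. Slc2a8 (0.69), Gcm1 (0.67) and Taf12 (0.60) were closest to Tbx3, Prdm14 and Esrrb.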

How the data were processed

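SMART-seq2 RNA of 67 mouse libraries was analysed, with groups taken from the labels. The deposited signal values are reads that the authors counted per gene and divided by 1 size factor per library. The submitters' processing notes name HISAT2, HTSeq 0.9.1 and mm9, and the methods describe RPKM, but no division by length was found. Whole reads were recovered for at least 99.97% of values in each library (tolerance 0.01 reads). The main test was limma 3.58.1 (R 4.3.3) with a pseudocount of 1 and a fit per comparison. It was also run on simulated counts of independent libraries. These held no shared embryo and no batch, so that run cannot show how the test behaves with either. Alternatives were a pseudocount of 0.1, other filters and scalings, a single fit over all libraries, edgeR 4.0.16 and DESeq2 1.42.0 on the recovered reads, the replicate number as a block, and leaving out single libraries. The interaction of blastocysts with the 8-cell stage and the fits within 1 Y-linked status were added after the data were seen.

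All 10 members were named, and from other lists up to 2 called genes with the smallest p per comparison. In blastocysts the defining markers of trophectoderm and primitive endoderm were named whatever their test, and Tcl1 at the 8-cell stage was added after its values were seen. The members and lists were chosen with earlier results of these data known. The closest libraries of a group differed by a chi-square of at least 6.64 per degree of freedom, so none was taken as a copy of another. This check cannot tell whether libraries came from separate embryos. The symbols of 24 genes had become dates and were kept as they were. Sperm genes summed to at most 10.4 and cumulus cell genes to at most 227 in any library.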

Additional observations from a re-analysis of the deposited data

Results flagged for a closer look

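In 15 of 78 combinations of a gene and a group of 4 to 10 libraries, 1 library stood apart from the others by Dixon's test at the 95% level. Chance gives about 1 in 20 for normally distributed values only. Skewed groups, such as Nanog in control 2-cell libraries (mean 1.73, SD 2.95), exceed the limit more often, so the count is not read against that rate. In 7 of the 15 every other library of the group was at 0, so that any read there meets the limit. Light 2-cell library 12 stood apart in 3 genes, with 171 for Tfcp2l1 (next 35.0), 13.2 for Nanog (next 2.10) and 4.13 for Prdm14 (the others at 0). Control 2-cell library 12 had 71.8 for Zfp42 and 6.52 for Tdgf1, control 2-cell library 24 had 8.27 for Nanog and control 2-cell library 17 had 6.09 for Prdm14. At the 4-cell stage light library 11 had 942 for Tdgf1 (next 428) and light library 1 had 0.981 for Sox2, which is 2 reads. At the 8-cell stage light library 5 had 26.6 for Nanog, light library 6 had 0.481 for Sox2 and control library 3 had 1.16 for Prdm14, the last 2 from 1 read each. Light morula 6 had 127.9 for Zfp42 (next 74.6), light morula 5 had 0.456 for Prdm14 from 1 read, and light blastocyst 15 had 2.10 for Sox2 from 4 reads.

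The difference between light and control was lower in blastocysts than at the 8-cell stage, by the interaction term added after the data were seen, for Pou5f1 (-3.30), Sox2 (-2.73), Esrrb (-4.70), Tfcp2l1 (-3.34), Tdgf1 (-6.46) and Tbx3 (-4.09), on the log2 scale. This term reuses the libraries of the calls at those stages and is no separate support for them. Without control blastocyst 1 or 2 the calls of Sox2, Esrrb and Tfcp2l1 were lost (adjusted p from limma up to 0.0795, 0.0853 and 0.084), and that of Tfcp2l1 also without control 8-cell 1 or 3 or light blastocyst 26.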

How the results depend on the processing

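The replicate block and single libraries left out are given further on. Under the other settings the counts of members called moved by over 1.5 times as follows, and by less or not at all elsewhere. At the 2-cell stage 1 became 2 in a single fit over all libraries, and at the 4-cell stage 0 became 1 there. At the 8-cell stage 4 became 2 with no filter and within 1 Y-linked status. In morulae 1 became 0 with no filter, the median ratio, RPM, edgeR and within 1 Y-linked status. In blastocysts 6 became 2 with a pseudocount of 0.1, 1 with no filter, the median ratio, quantile normalization or RPM, and 3 with edgeR or DESeq2. From the control 4-cell to the 8-cell stage 2 became 1 with a pseudocount of 0.1, 0 with no filter, the median ratio, RPM or edgeR, and 4 in a single fit. From control morula to blastocyst 1 became 2 in RPM, and from light 4-cell to 8-cell 2 became 1 with no filter, the median ratio, RPM, a single fit or edgeR. The morula to blastocyst interaction went from 0 to 1 in a single fit and 2 with edgeR, and the added interaction from 6 to 3 in RPM. Leaving out 1 library gave 1 to 2, 0 to 0, 2 to 4, 0 to 2 and 1 to 6 from the 2-cell stage to blastocysts, 4 to 5, 0 to 4, 4 to 6 and 0 to 2 over the 4 control steps, 3 to 5, 1 to 2, 4 to 4 and 5 to 5 over the 4 light steps, and 0 to 2 and 3 to 7 for the interactions. Over single genes, 0 of 1146 refits under other settings and 0 of 2074 with a library left out reversed a call, and 99 and 86 lost one. These totals include refits of values that were not called and so had no call to lose. A call was gained in 20 and 29 refits, and the sign changed without a call in 56 and 103. The causes of these moves were not tested, except that fewer libraries were compared where some were left out.

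With the replicate number as a block, 0 members were called at the 2-cell stage, in morulae, in the control steps from the 4-cell stage on and in the light steps from the 2-cell to the 8-cell stage. Over all genes the block called 106 of 13425 in the control 4-cell to 8-cell step and 161 of 15178 in the light one. It called 0 of all genes in the other comparisons named, so the 0 there is no result about the members. Correlations of libraries with the same number lay between -0.0683 and 0.0693, so the numbers were not taken to pair the libraries.

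Over all genes, other settings called 53 to 753 genes at the 4-cell stage in place of 218, 112 to 981 in morulae in place of 179, and 151 to 503 in blastocysts in place of 680, before the block, under which these comparisons called 0 where it was run. The 2-cell count of 1944 became 3043 in a single fit, 682 within 1 Y-linked status and 0 with the block. The 8-cell count of 1276 became 769 within 1 Y-linked status. The share of called genes that were lower at the 8-cell stage was 35.8% and 49.4% by the median ratio, and in morulae 69.8% and 46.8% in RPM. By the median ratio this share moved from 81.9% to 27.0% in the control 4-cell to 8-cell step, from 52.3% to 63.8% and from 43.1% to 31.5% in the next 2 control steps, from 79.6%, 94.1%, 61.0% and 75.8% to 67.1%, 57.7%, 51.0% and 37.9% in the 4 light steps, and from 92.5% and 88.8% to 67.2% and 60.4% in the interactions. Sox2 and Prdm14 rest on few reads in most libraries, and the 3 control blastocysts limit every comparison that uses them.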
